A study of Caenorhabditis elegans with 12 samples.

Results

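The 8 genes described here belong to the mitochondrial unfolded protein response of Caenorhabditis elegans. They are hsp-6 and hsp-60 (chaperones), atfs-1, ubl-5 and dve-1 (regulators), and clpp-1, spg-7 and lonp-1 (proteases). They were chosen by name as textbook components of this response, but with earlier results of these data known. Each was found by matching its gene ID to its symbol in the WBcel235 annotation. They are 8 of the 46904 gene IDs listed for each library, and all 8 passed the filter on low counts that left 15090 genes for testing.

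The animals came from 4 genotypes, with 3 whole-body RNA libraries each, all harvested at day 1 of adulthood. The pfd-6(gk493446); daf-2(e1370) double mutant (strain IJ485) carries both of the following mutations. The daf-2(e1370) strain CF1041 has a mutated insulin/IGF-1 receptor, a change known for long life. The pfd-6(gk493446) strain IJ462 has a mutated subunit of prefoldin, a cytosolic complex that hands unfolded proteins to the TRiC/CCT chaperonin. N2 is the wild type. All animals were raised on bacteria for control RNA interference (RNAi), and were moved at the L4 larval stage to plates with FUdR, a drug that blocks DNA synthesis and so the growth of progeny, seeded with bacteria for control or for pfd-6 RNAi. The series' design text speaks instead of plates for control or hsf-1 RNAi, where hsf-1 encodes heat shock factor, a transcription factor of chaperone genes. No label says which of these plates a library came from, so a plate that differed between libraries cannot be told apart from genotype. Each mutant genotype is 1 strain, and nothing in the labels says how often it was outcrossed.

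Mitochondria import most of their proteins unfolded and refold them with their own Hsp70 (HSP-6) and their own chaperonin (HSP-60). When import or folding fails, the transcription factor ATFS-1, which is normally imported and degraded inside mitochondria, goes to the nucleus and raises chaperone and protease genes, and the homeobox protein DVE-1 with the ubiquitin-like protein UBL-5 helps to open chromatin at such genes. Worm geneticists read the state of this response from hsp-6 and hsp-60 expression, chiefly in the intestine. The libraries were made from whole animals, so fewer cells of a type and less RNA per cell cannot be told apart.

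Total expected counts ran from 19394046 to 41009125 per library. Levels are given as CPM, counts scaled to library size and composition by the TMM method. The pfd-6 transcript itself averaged 15.9 ± 1.32 CPM in double mutants and 13.9 ± 6.53 CPM in pfd-6 animals, against 101 ± 50.1 CPM in daf-2 animals and 111 ± 28.9 CPM in N2 (SD, n = 3 each) and so was low in both genotypes labelled with its mutation. There were 3 libraries that stood apart. The share of counts from cytosolic ribosomal protein genes was 1.41% for daf-2 replicate 3 and 0.609% for pfd-6 replicate 3, and it lay between 9.33% and 15.9% for the other 10 libraries. N2 replicate 3 held by far the highest levels of hsp-60 and the highest of hsp-6, atfs-1 and spg-7, and each comparison of the 8 genes with N2 below is also given without it.

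The level of hsp-6, the mitochondrial Hsp70 (WBGene00002010, chromosome V, 4824124 to 4826760, minus strand), was 509, 455 and 569 CPM in double mutants (replicates 1, 2 and 3). It was 338, 561 and 275 CPM in daf-2 animals and 321, 692 and 147 CPM in pfd-6 animals. N2 had 477, 599 and 1210.2 CPM. The libraries of the 4 genotypes overlapped. The lowest was pfd-6 replicate 3, the highest N2 replicate 3, and double mutants lay closest together.

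The level of hsp-60, the mitochondrial chaperonin (WBGene00002025, chromosome III, 1619742 to 1625803, plus strand), was 337, 248 and 443 CPM in double mutants. It was 137, 235.06 and 119.6 CPM in daf-2 animals and 78.1, 299.9 and 51.3 CPM in pfd-6 animals. N2 had 126, 169 and 1085 CPM. All 3 double mutant libraries lay above all 3 daf-2 libraries, as they did for 14.4% of all genes tested. The N2 mean of 460.1 ± 542 CPM (SD, n = 3) rested on replicate 3, and the other 2 N2 libraries lay below every double mutant library. Between the lowest and the highest library hsp-60 spanned 21.1-fold, a wider span than in 85.0% of the genes tested, whereas lonp-1 spanned 2.09-fold, wider than in 9.64%.

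**Figure D1:**
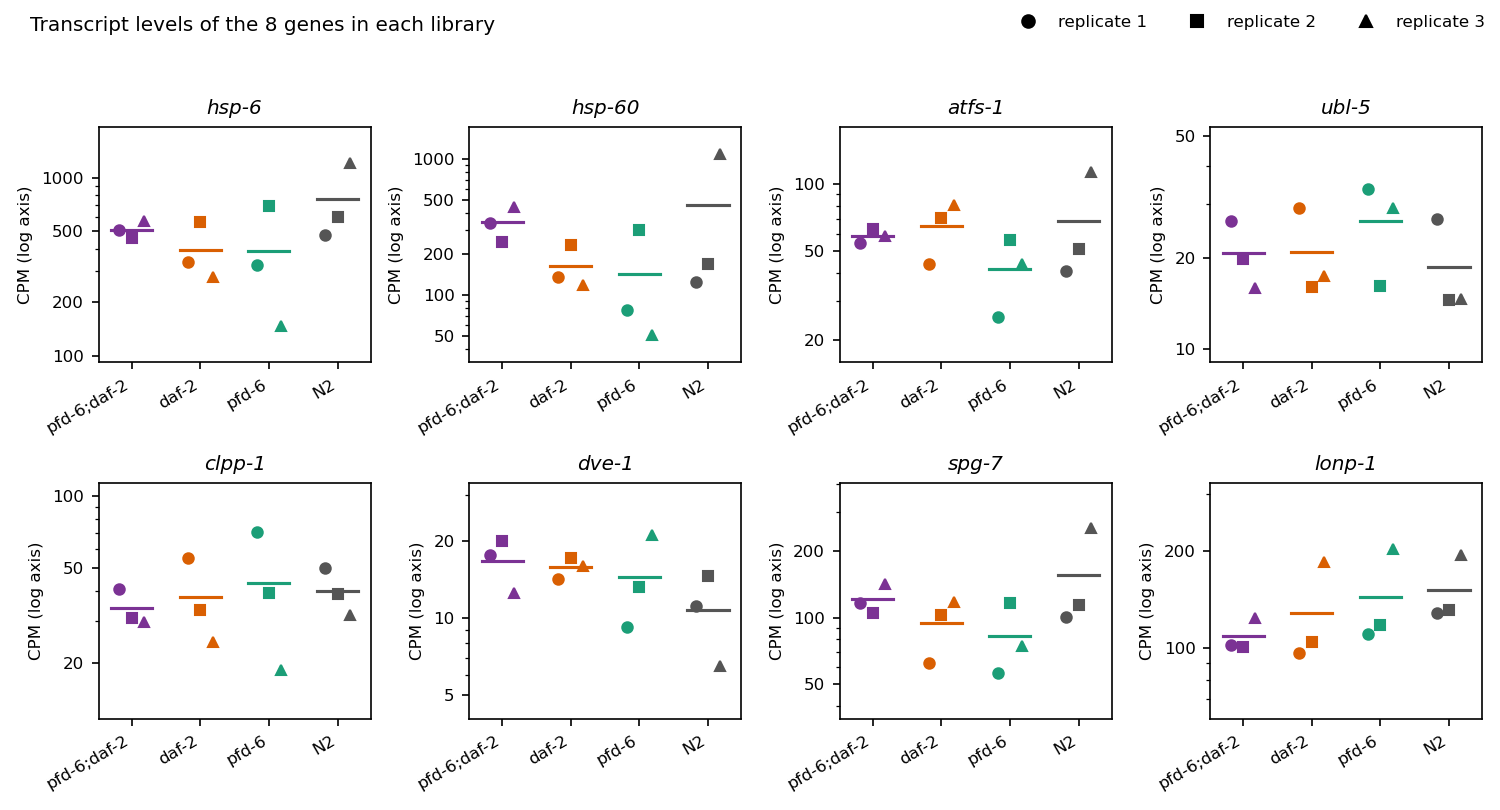
CPM (log axis) of each of the 8 genes in each library, by genotype; symbols mark the replicate number and lines the mean of 3 libraries. N2 replicate 3 is the highest library for hsp-6, hsp-60, atfs-1 and spg-7 and the lowest for dve-1. The level of hsp-60 in the double mutant (248 to 443 CPM) lies above daf-2 (119.6 to 235.06 CPM), as for 14.4% of all genes tested.

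Among the regulators, atfs-1 (WBGene00013878, chromosome V, 14193663 to 14197700, plus strand) had 54.3, 62.8 and 58.3 CPM in double mutants and 43.8, 70.6 and 80.3 CPM in daf-2 animals. In pfd-6 animals it had 25.5, 56.2 and 43.8 CPM, and in N2 41.0, 51.3 and 113 CPM. The double mutant libraries differed among themselves by 1.16-fold at most, and every other genotype reached across that range or, in pfd-6, to its lower part. The gene dve-1 (WBGene00022861, chromosome X, 427035 to 433812, minus strand) had 17.5, 19.9 and 12.5 CPM in double mutants and 14.2, 17.2 and 15.9 CPM in daf-2 animals. It had 9.24, 13.2 and 20.99 CPM in pfd-6 animals and 11.15, 14.5 and 6.49 CPM in N2. The lowest dve-1 level came from N2 replicate 3, the library with the highest hsp-60. The gene ubl-5 (WBGene00006726, chromosome I, 5607826 to 5608841, minus strand) ranged from 15.9 to 26.4 CPM in double mutants, 16.0 to 29.2 in daf-2 animals, 16.2 to 33.7 in pfd-6 animals and 14.5 to 26.7 in N2, so that all 4 genotypes overlapped. In every genotype its highest library was replicate 1.

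Among the proteases, spg-7, the inner-membrane paraplegin-type AAA protease (WBGene00004978, chromosome I, 3467132 to 3478517, plus strand), had 117, 105 and 142 CPM in double mutants and 62.4, 103 and 118 CPM in daf-2 animals. It had 56.1, 116 and 74.5 CPM in pfd-6 animals and 100.3, 114 and 253 CPM in N2. Without N2 replicate 3 the N2 libraries lay inside or just below the double mutant range, and the lowest values were replicate 1 of each single mutant. The matrix protease subunit clpp-1 (WBGene00014172, chromosome II, 10300714 to 10302842, minus strand) had 41.0, 30.99 and 29.9 CPM in double mutants and 55.1, 33.5 and 24.7 CPM in daf-2 animals. It had 71.2, 39.5 and 18.8 CPM in pfd-6 animals and 50.1, 38.9 and 31.9 CPM in N2. In every genotype clpp-1 was highest in replicate 1 and lowest in replicate 3. The matrix Lon protease lonp-1 (WBGene00016391, chromosome I, 10676922 to 10682374, minus strand) ranged from 101 to 124 CPM in double mutants, 97.1 to 185 in daf-2 animals, 110.8 to 203 in pfd-6 animals and 129 to 194 in N2. For lonp-1 replicate 3 was the highest library in all 4 genotypes, and the ranges overlapped in each pair compared. Double mutants and N2 did not overlap, and the double mutant range lay lower. That pair was not compared, and the share of all genes without overlap in it was not counted. No exon of the 8 genes overlaps an exon of another annotated gene.

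To compare the genes with each other, levels were divided by the summed length of their exons, which runs from 327 bases (ubl-5) to 3319 bases (dve-1). On this scale hsp-6 was the highest of the 8 in 10 of 12 libraries and dve-1 the lowest in all 12. In double mutants hsp-6 averaged 208 ± 23 and hsp-60 162 ± 45.96 CPM per kilobase (SD, n = 3 each), and these neighbours overlapped. The next level, ubl-5 with 63.3 ± 16.3, stood below both without overlap. From ubl-5 through clpp-1 and spg-7 to lonp-1 neighbours overlapped, and then atfs-1 with 30.4 ± 2.21 and dve-1 with 5.01 ± 1.14 CPM per kilobase each stood below the gene before without overlap. In daf-2 animals hsp-6 averaged 159 ± 61.0 and hsp-60 77.3 ± 29.3 CPM per kilobase, and did not overlap. In pfd-6 animals and N2 the genes above dve-1 all overlapped their neighbours in the order.

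The level of hsp-60 per kilobase was 0.769, 0.632 and 0.903 times that of hsp-6 in double mutants (replicates 1, 2 and 3). The ratio was 0.471, 0.486 and 0.503 in daf-2 animals and 0.282, 0.503 and 0.405 in pfd-6 animals, and 0.307, 0.328 and 1.04 in N2. All 3 double mutant libraries thus had more hsp-60 per hsp-6 than all 6 single mutant libraries. N2 replicate 3 had the highest ratio and the other 2 N2 libraries were among the lowest. This ratio was looked at after the values were seen and is given without a test.

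**Figure D2:**
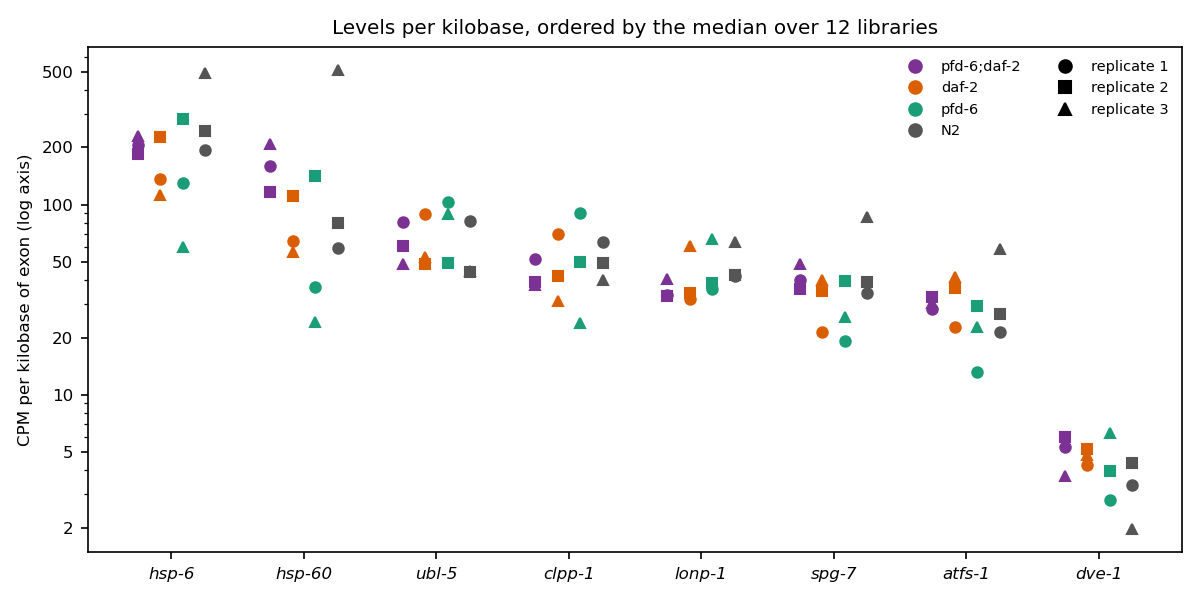
CPM per kilobase of summed exon length (log axis) for the 8 genes, ordered by their median over 12 libraries; colours mark the genotype and symbols the replicate number. The gene hsp-6 is the highest in 10 of 12 libraries, dve-1 is the lowest in 12, and the 5 genes from ubl-5 to atfs-1 overlap.

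Replicate 3 was set against replicates 1 and 2 of its own genotype as a description, chosen after the values were seen. In N2, hsp-60 was 7.43-fold, atfs-1 2.46-fold, spg-7 2.36-fold and hsp-6 2.26-fold higher in replicate 3 than in the geometric mean of the other 2 libraries. Thus 4 of 8 genes were at least 2-fold higher there, where 10.1% of the genes tested were. In the same library dve-1 was at 0.513 of that mean, clpp-1 at 0.723 and ubl-5 at 0.741. In pfd-6 animals replicate 3 went the other way for the chaperones, with hsp-6 at 0.311 and hsp-60 at 0.335 of the mean of replicates 1 and 2. The protease gene clpp-1 was at 0.354 there, lower as in N2. There 3 of 8 genes were at least 2-fold lower, where 22.7% of the genes tested were. In double mutants 0 of 8 were at least 2-fold higher and 0 of 8 lower, where 4.72% and 3.75% of the genes tested were. In daf-2 animals both counts were 0 too, where 8.67% and 20% were.

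Some other chaperone genes, picked after their values were seen, were also high in N2 replicate 3. The cytosolic Hsp70 gene hsp-1 had 5931 CPM there, against 1191 and 1657 CPM in N2 replicates 1 and 2. The endoplasmic reticulum Hsp70 genes hsp-3 and hsp-4 had 688 and 557 CPM in N2 replicate 3, against 250.2 and 374 CPM for hsp-3 and 212 and 248 CPM for hsp-4 in the other 2. The mitochondrial Hsp90 gene trap-1 had 574 CPM against 171 and 226 CPM, and the mitochondrial co-chaperonin gene Y22D7AL.10 had 238 CPM against 82.9 and 81.1 CPM. These 5 genes were at least 2-fold above the geometric mean of the other 2 libraries. Of the whole list of 7 mitochondrial chaperones and co-chaperones 2 were, trap-1 and Y22D7AL.10, and the list's median difference was 0.49 on the log2 scale. The inducible cytosolic hsp-70 was not: it had 0.62 CPM in N2 replicate 3, against 3.44 and 8.22 CPM. Of 12 protein-coding genes on the mitochondrial chromosome 8 were at least 2-fold lower in N2 replicate 3, where 14.7% of the genes tested were. Another 2 of the 12 were at least 2-fold higher there, where 10.1% of the genes tested were. Markers of sperm were also higher there, 6 of 7 of them at least 2-fold, and their part in the chaperone levels was not tested.

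**Figure D3:**
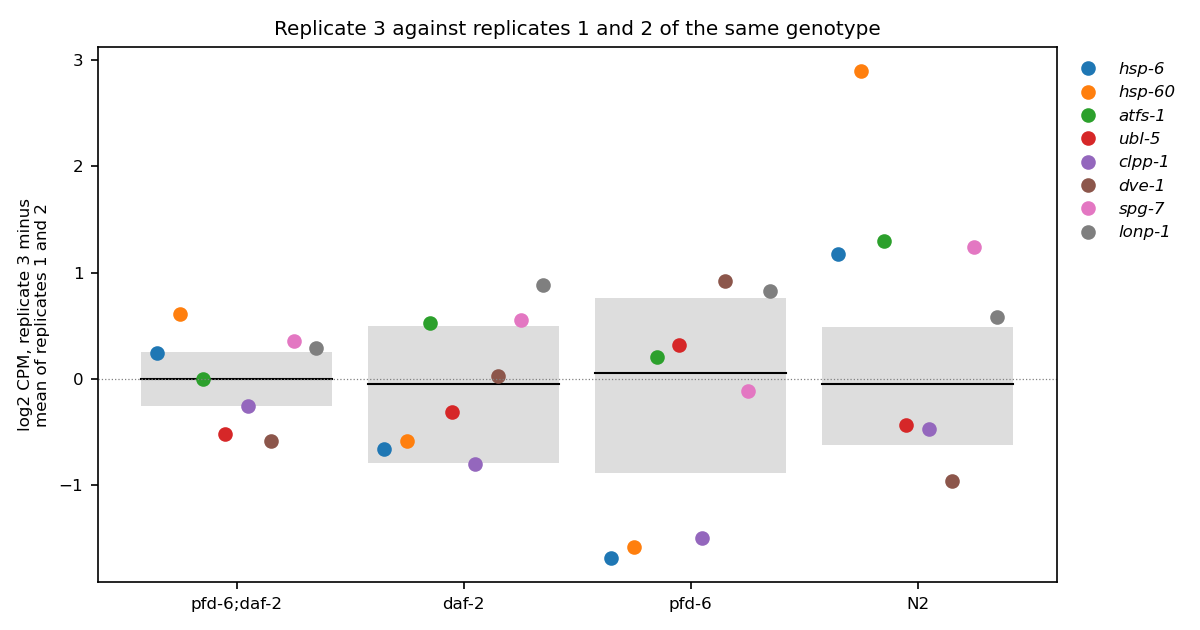
Difference in log2 CPM between replicate 3 and the mean of replicates 1 and 2 of the same genotype for each of the 8 genes (points); grey bands span the middle 50% of all genes tested and black lines their median. In N2 hsp-60 lies at 2.89 and hsp-6, atfs-1 and spg-7 lie between 1.18 and 1.298, while in pfd-6 hsp-6, hsp-60 and clpp-1 lie between -1.68 and -1.497.

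The genotypes were compared with edgeR's quasi-likelihood test over all 15090 genes, with a threshold of 0.05 on the Benjamini-Hochberg adjusted p. No member passed it in any comparison, and none did with DESeq2. The comparisons of daf-2 and of pfd-6 with N2 share the N2 libraries, and those of the double mutant share its libraries. A p that misses the threshold does not show that the levels were alike, and the intervals below give the range of differences these libraries allow.

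The change with the daf-2 mutation in animals with normal pfd-6 was read from daf-2 against N2. Of the 8 genes 0 were called, where 0.934% of all genes tested were, and 0 had an unadjusted p under 0.05, where 10.1% did. With the replicate number as a block 253 genes were called, against 141 without it, and again 0 of the 8. In 0 of 8 did the daf-2 and N2 libraries stay apart, where 10.6% of all genes tested lay higher and 7.66% lower without overlap. The log2 fold change was negative for 6 of 8 genes and its median was -0.16, beside 0.03 over all genes tested. The gene hsp-60 had a log2 fold change of -1.49 ± 0.81 (SE; 95% interval -3.25 to 0.28; edgeR adjusted p = 0.598). For hsp-6 it was -0.96 ± 0.55 (-2.16 to 0.24) and for spg-7 -0.72 ± 0.40 (-1.60 to 0.15). The largest positive value was 0.55 ± 0.37 for dve-1 (-0.25 to 1.36), and the other 4 genes lay between -0.23 and 0.16.

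The largest of these estimates rested on N2 replicate 3. Without it hsp-60 came to 0.10, hsp-6 to -0.51, spg-7 to -0.23, dve-1 to 0.25, atfs-1 to 0.44 (-0.07 with it) and ubl-5 to -0.04 (0.16 with it). In the same fit lonp-1 came to -0.06, while clpp-1 moved away from 0, to -0.29. Leaving out N2 replicate 2 also gave ubl-5 a value of -0.04, and leaving out daf-2 replicate 1 gave -0.16 for ubl-5 and 0.14 for atfs-1. The sign of clpp-1, -0.09 with all libraries, turned without N2 replicate 1 (0.13) or daf-2 replicate 3 (0.15). No member was called in any of these fits. Within the replicate numbers, hsp-60 in daf-2 minus N2 was 0.12 and 0.47 on the log2 scale in numbers 1 and 2 and -3.18 in number 3.

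The change with the pfd-6 mutation in animals with normal daf-2 was read from pfd-6 against N2. Of the 8 genes 0 were called, where 0.0994% of all genes tested were, and 1 had an unadjusted p under 0.05, where 6.93% did. That gene was spg-7, with a log2 fold change of -0.92 ± 0.40 (SE; 95% interval -1.80 to -0.04; unadjusted p = 0.0411, edgeR adjusted p = 0.614). The pfd-6 and N2 libraries overlapped for all 8 genes, where 4.71% of all genes tested lay higher and 2.75% lower without overlap. The median over the 8 genes was -0.39, beside 0.04 over all genes tested. The estimate was -1.68 ± 0.82 for hsp-60 (-3.46 to 0.09), -0.98 ± 0.55 for hsp-6 (-2.18 to 0.22) and -0.71 ± 0.41 for atfs-1 (-1.59 to 0.18). The other 4 genes lay between -0.07 for lonp-1 and 0.50 for ubl-5.

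Without N2 replicate 3 hsp-60 came to -0.03, hsp-6 to -0.46, atfs-1 to -0.14 and spg-7 to -0.38. In the same fit clpp-1, 0.10 with all libraries, came to -0.04, lonp-1 to 0.14, ubl-5 to 0.34 and dve-1 to 0.16. Without pfd-6 replicate 1 clpp-1 was at -0.47 and lonp-1 at 0.08, and without pfd-6 replicate 2 lonp-1 was at 0.04. Without pfd-6 replicate 2 the estimates were further from 0, at -2.83 for hsp-60 and -1.71 for hsp-6. In replicate number 2 hsp-60 was higher in pfd-6 than in N2 by 0.83 on the log2 scale and hsp-6 by 0.21. In number 3 the differences were -4.40 and -3.04.

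**Figure D4:**
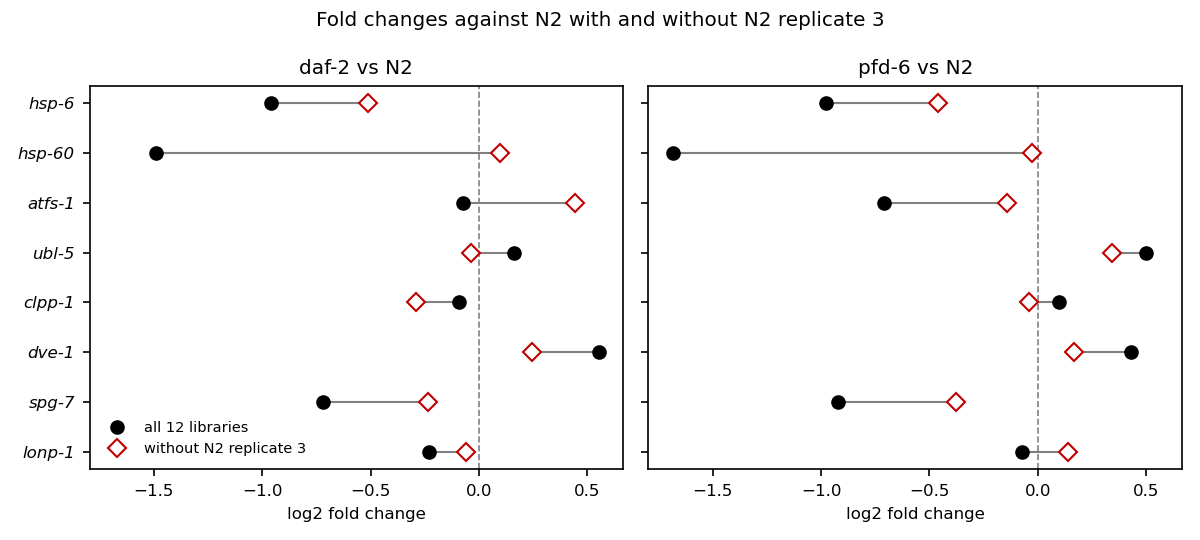
Log2 fold changes of the 8 genes in daf-2 and in pfd-6 against N2 from edgeR, with all 12 libraries (filled) and without N2 replicate 3 (open). The gene hsp-60 moves most, to 0.10 against -1.49 in daf-2 and to -0.03 against -1.68 in pfd-6.

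The change with the pfd-6 mutation in animals that already carried the daf-2 mutation was read from the double mutant against daf-2. Of the 8 genes 0 were called, where 3.11% of all genes tested were, and 0 had an unadjusted p under 0.05, where 15% did. With the replicate block 814 genes were called, against 470 without it, and again 0 of the 8. The gene hsp-60 was higher in all 3 double mutant libraries than in all 3 daf-2 libraries, with a log2 fold change of 1.06 ± 0.80 (SE; 95% interval -0.68 to 2.81; edgeR adjusted p = 0.599). It was 1 of 8 genes without overlap in that direction, where 14.4% of all genes tested showed this, and 0 of 8 lay lower without overlap, where 14.2% did. Leaving out any 1 library left hsp-60 between 0.77 and 1.41. Within replicate numbers 1, 2 and 3 it was higher by 1.298, 0.08 and 1.89 on the log2 scale.

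The other chaperone, hsp-6, had a log2 fold change of 0.39 ± 0.55 in the double mutant against daf-2 (-0.81 to 1.58), and spg-7 one of 0.36 ± 0.40 (-0.51 to 1.23). Leaving out 1 library moved hsp-6 between 0.24 (without double mutant replicate 3) and 0.73 (without daf-2 replicate 2). It moved spg-7 between 0.13 (without daf-2 replicate 1) and 0.60 (without daf-2 replicate 3). The median over the 8 genes was 0.03, beside -0.07 over all genes tested. The other 5 genes lay between -0.24 for lonp-1 and 0.08 for dve-1, and each changed sign when 1 library was left out. Without daf-2 replicate 3, the library low in ribosomal protein genes, atfs-1 came to 0.08 and lonp-1 to 0.17. Without daf-2 replicate 1 clpp-1 came to 0.22 and ubl-5 to 0.31, and without double mutant replicate 2 dve-1 came to -0.07. The sign of ubl-5 (-0.01 with all libraries, 0.02 with RLE size factors) also turned without N2 replicate 1 (0.05), pfd-6 replicate 3 (0.04) or double mutant replicate 2 (0.02) or 3 (0.09).

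The change with the daf-2 mutation in animals that already carried the pfd-6 mutation was read from the double mutant against pfd-6. Of the 8 genes 0 were called, where 3.29% of all genes tested were, and 0 had an unadjusted p under 0.05, where 20.4% did. The median log2 fold change over the 8 genes was 0.30, beside -0.02 over all genes tested. The estimate was 1.26 ± 0.81 for hsp-60 (SE; 95% interval -0.49 to 3.01; edgeR adjusted p = 0.403), 0.56 ± 0.40 for spg-7 (-0.31 to 1.43), 0.48 ± 0.41 for atfs-1 (-0.40 to 1.36) and 0.40 ± 0.55 for hsp-6 (-0.79 to 1.59). The other 4 genes lay between -0.40 for lonp-1 and 0.20 for dve-1. Without pfd-6 replicate 1 clpp-1 came to 0.22 (-0.35 with it) and dve-1 to -0.04. Without pfd-6 replicate 2 hsp-60 (2.40), hsp-6 (1.13), spg-7 (0.89) and atfs-1 (0.76) were at their highest, and none of them was called in that fit. The lowest values were 0.09 for hsp-6 without pfd-6 replicate 3, 0.23 for atfs-1 without pfd-6 replicate 1, and 0.31 for spg-7 and 0.90 for hsp-60 without double mutant replicate 3. In no gene did the libraries of double mutants and pfd-6 animals stay apart, where 14.6% of all genes tested lay higher and 13.9% lower without overlap.

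Whether daf-2 acted differently with and without pfd-6 was tested as an interaction, the log2 fold change of the double mutant against pfd-6 minus that of daf-2 against N2. Of the 8 genes 0 were called, where 0.139% of all genes tested were, and 2 had an unadjusted p under 0.05, where 17.4% did. For hsp-60 the interaction was 2.75 ± 1.15 (SE; 95% interval 0.26 to 5.24; unadjusted p = 0.0330, edgeR adjusted p = 0.264). For spg-7 it was 1.28 ± 0.57 (0.05 to 2.52; unadjusted p = 0.0431, edgeR adjusted p = 0.281), and for hsp-6 1.36 ± 0.78 (-0.33 to 3.06). The other 5 genes lay between -0.51 for ubl-5 and 0.56 for atfs-1, and the median of all 8 was 0.20, beside -0.12 over all genes tested.

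The interaction also rested on N2 replicate 3, which enters with a positive sign. Without it hsp-60 came to 1.02, hsp-6 to 0.78, spg-7 to 0.67 and atfs-1 to -0.08. In the same fit ubl-5 came to -0.42, clpp-1 to -0.18, dve-1 to -0.16 and lonp-1 to -0.45. The sign of clpp-1, -0.25 with all libraries, turned without daf-2 replicate 1 (0.12) or pfd-6 replicate 1 (0.32). Leaving out pfd-6 replicate 3 gave 0.06 for dve-1, which was -0.35 with it, and 0.19 for lonp-1, which was -0.17 with it. Leaving out daf-2 replicate 3 gave 0.19 for lonp-1 too. The lowest adjusted p that any member had under any alternative, 0.0717, was that of the hsp-60 interaction (3.89) without pfd-6 replicate 2.

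**Figure D5:**
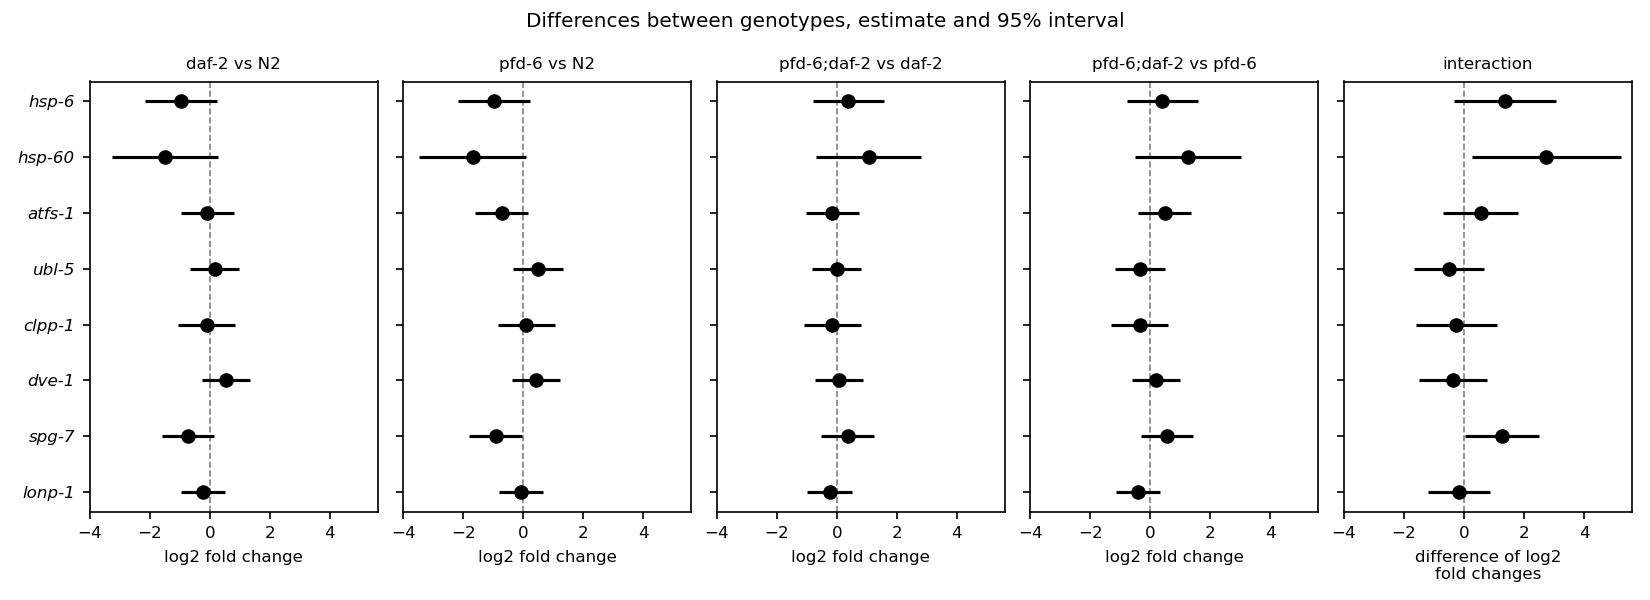
Log2 fold changes of the 8 genes in the 4 comparisons and the interaction (points) with 95% intervals from edgeR. Of the 40 intervals 37 cross 0, and the others are spg-7 in pfd-6 against N2 and hsp-60 and spg-7 in the interaction, with adjusted p of 0.614, 0.264 and 0.281.

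The wider pathway was followed through lists of other mitochondrial quality control genes. Of 7 mitochondrial chaperones and co-chaperones 0 were called in any comparison. Their median log2 fold change was -0.29 in daf-2 against N2, -0.12 in pfd-6 against N2, -0.27 in the double mutant against daf-2 and -0.38 in the double mutant against pfd-6. The lowest adjusted p of the list, 0.254, was that of trap-1 in the interaction, with a log2 value of 1.95 ± 0.78 (SE). Without N2 replicate 3 that value was 1.16 (adjusted p = 0.477), and the list's medians against N2 were -0.30 in daf-2 and -0.11 in pfd-6. Without daf-2 replicate 3 the median of the double mutant against daf-2 was -0.0074. Against both single mutants the list's median in double mutants was thus negative while the estimate of hsp-60 was positive. The list was split, however. In each of these comparisons 3 of its 7 genes were positive like hsp-60, and the rest were negative. Its values ran from -0.38 to 0.52 against daf-2 and from -0.54 to 0.67 against pfd-6. The intervals of hsp-60 crossed 0 in both, so a difference between hsp-60 and the list was not shown.

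Of 9 mitochondrial proteases and peptide exporters 1 was called, in the double mutant against daf-2, where 3.11% of all genes tested were. This gene, K07A3.3, was higher in the double mutant. It had 1.69, 1.15 and 2.31 CPM in double mutants, against 0.10, 0.42 and 0.06 CPM in daf-2 animals, a log2 fold change of 3.104 ± 0.76 (SE; edgeR adjusted p = 0.0486). Every double mutant library lay above every daf-2 library, at levels far under those of the 8 genes. In the same comparison 5 of 7 sperm markers were called higher, and their part in this call was not tested. The call was lost in 13 of 20 alternatives, 10 of them fits that left out 1 library, and adjusted p there ran up to 0.208, without double mutant replicate 3. With the replicate block it was 0.0512. Among the others of this list the inner-membrane protease ymel-1 had 69.4, 63.7 and 80.05 CPM in double mutants, 33.9, 57.6 and 86.8 CPM in daf-2 animals, 27.7, 68.2 and 63.4 CPM in pfd-6 animals and 48.2, 63.5 and 113 CPM in N2.

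Of 10 genes for the mitochondrial import machinery, 11 for signalling and chromatin steps of the response, 4 for mitochondrial antioxidant enzymes, 4 for mitochondrial DNA maintenance and 70 for mitochondrial ribosomal proteins, 0 were called in any comparison. The lowest adjusted p among the signalling and chromatin genes, 0.171, was that of rheb-1, the small GTPase upstream of TOR, in the double mutant against pfd-6 (log2 -0.81 ± 0.31). In the import list the lowest was 0.181 for tin-44, a subunit of the import motor, in the same comparison (-0.95 ± 0.37). The lowest among mitochondrial ribosomal proteins was 0.0769 for mrpl-9, again in the double mutant against pfd-6 (-1.496 ± 0.42), where the list's median was -0.64. In that comparison 2 of 70 mitochondrial ribosomal protein genes were called without N2 replicate 3, mrpl-9 among them (edgeR adjusted p = 0.0375). Over all genes tested 672 were called in that fit. Without pfd-6 replicate 3, 1 of 70 was called, and 364 over all genes tested. The lin-65 gene, which acts with the methyltransferase gene met-2 in the chromatin step, had 46.2, 44.02 and 57.5 CPM in double mutants and 27.7, 39.8 and 34.0 CPM in daf-2 animals. It had 23.9, 46.2 and 20.3 CPM in pfd-6 animals and 38.1, 48.6 and 89.3 CPM in N2, so lin-65, like spg-7, was highest in N2 replicate 3.

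Of 12 protein-coding genes on the mitochondrial chromosome, identified by chromosome, 0 were called in any comparison. All 12 were lower in the double mutant than in daf-2 by estimate, with a median log2 fold change of -0.78, and all 12 were lower than in pfd-6, with a median of -1.38. Against N2 the median was 0.55 in daf-2, where 10 of 12 were positive, and 1.11 in pfd-6, where 12 of 12 were. The summed level in N2 was 6802, 4422 and 2260 CPM (replicates 1, 2 and 3), and without replicate 3 of N2 the medians were 0.28 in daf-2 and 0.97 in pfd-6. Without daf-2 replicate 3 the median was 0.15 in daf-2 against N2 and -0.20 in the double mutant against daf-2, where 9 of 12 were then negative. Without pfd-6 replicate 3 it was 0.63 in pfd-6 against N2 and -0.81 in the double mutant against pfd-6. With all libraries none passed the test, and the lowest adjusted p among them was 0.155. These transcripts are read from 1 chromosome, so the 12 do not count as independent. In replicate 3 against replicates 1 and 2, 9 of 12 were at least 2-fold higher in pfd-6 and 7 of 12 in daf-2, where 17.9% and 8.67% of all genes tested were. The 12 did not all move the same way. In double mutants 2 of 12 were at least 2-fold higher and 5 at least 2-fold lower, where 4.72% and 3.75% of all genes tested were.

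Of the 6 ATFS-1-dependent genes outside the chaperones, 5 passed the filter. Of these 1 was called, in the double mutant against pfd-6, where 3.29% of all genes tested were. The C-type lectin gene clec-4 had 31.4, 38.4 and 19.55 CPM in double mutants, against 2.20, 3.36 and 5.16 CPM in pfd-6 animals. Every double mutant library was higher, with a log2 fold change of 3.06 ± 0.52 (SE; edgeR adjusted p = 0.0112), and the call held in all 20 alternatives. The daf-2 libraries had 8.996, 20.2 and 5.52 CPM and N2 8.13, 8.15 and 12.7 CPM. Beside it, lys-2, a lysozyme gene, had 1352, 1318 and 763 CPM in double mutants, 1696, 1095 and 446 CPM in daf-2 animals, 844, 500.2 and 1158 CPM in pfd-6 animals and 759, 759.9 and 157 CPM in N2. The lowest lys-2 level was that of N2 replicate 3.

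Of 4 Hsp70 genes outside mitochondria, relatives of hsp-6, 1 was called, in the double mutant against pfd-6, where 3.29% of all genes tested were. The inducible hsp-70 had 2.89, 9.60 and 1.87 CPM in double mutants, against 0.46, 0.23 and 0.19 CPM in pfd-6 animals, a log2 fold change of 4.02 ± 0.94 (SE; edgeR adjusted p = 0.0394). It had 7.71, 16.9 and 5.14 CPM in daf-2 animals and 3.44, 8.22 and 0.62 CPM in N2. The call was lost in 10 of 20 alternatives, 8 of them fits without 1 library, with adjusted p up to 0.129 (without double mutant replicate 2). The constitutive cytosolic hsp-1 had 1857, 1827 and 2494 CPM in double mutants and 1022, 1833 and 684 CPM in daf-2 animals, and 763, 1753 and 93.4 CPM in pfd-6 animals. Like hsp-60, hsp-1 was lowest in pfd-6 replicate 3 and highest in N2 replicate 3.

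Over the 12 libraries hsp-6 and hsp-60 varied together, with a Pearson correlation of log2 CPM of 0.897, and 0.839 without N2 replicate 3. The correlation of hsp-60 with spg-7 was 0.855, and that of atfs-1 with spg-7 0.856. Without N2 replicate 3 these were 0.736 and 0.757. That of hsp-6 with atfs-1 was 0.530, and 0.270 without that library. In contrast ubl-5 ran against atfs-1 (-0.774), hsp-60 (-0.654) and hsp-6 (-0.654). These 12 points share libraries, and depth, replicate number and genotype all enter, so the values are descriptions. The correlation of hsp-6 with lonp-1 was -0.174 over all libraries and 0.819 with both libraries low in ribosomal protein genes left out, and so depended on those 2.

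Among 7720 genes with a mean of at least 10 CPM, those whose log2 CPM ran most like hsp-6 over the 12 libraries were pdhb-1 (Pearson r = 0.991), atp-2 (0.985), mdh-2 (0.985), arp-1 (0.984) and yop-1 (0.984). Those most like hsp-60 were elpc-2 (0.985), Y71G12B.13 (0.979), lmn-1 (0.977), pygl-1 (0.971) and top-2 (0.970). Those most like atfs-1 were acs-19 (0.967), dpy-27 (0.967), osm-1 (0.950), inf-1 (0.950) and atgl-1 (0.948). No member was among the 5 genes nearest to hsp-6, hsp-60 or atfs-1, the genes for which this was looked at. Without N2 replicate 3 the r of these 15 genes lay between 0.923 and 0.993.

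Markers of tissues were read beside these results. Sperm markers, 7 genes at low levels, summed to 33.3 to 87.9 CPM in double mutants, 1.39 to 5.65 CPM in daf-2 animals, 3.82 to 12.01 CPM in pfd-6 animals and 4.32 to 15.2 CPM in N2, with 1 marker at 0 in N2 replicate 1. In the double mutant 5 of 7 were higher than in daf-2 and 3 of 7 higher than in pfd-6 by edgeR's test. Of all genes tested 3.11% and 3.29% were called there, in either direction. Hypodermis markers had 1 of 5 called, higher in the double mutant than in pfd-6, where 3.29% of all genes tested were called. They summed to 2592 to 2685 CPM in double mutants and 111 to 1365 CPM in daf-2 animals. The sums were 92.0 to 1368 CPM in pfd-6 animals and 1137 to 1599 CPM in N2. Intestine markers, 6 genes, summed to 1919 to 2352 CPM in double mutants and 511 to 1446 CPM in daf-2 animals. They summed to 601 to 2379 CPM in pfd-6 animals and 2307 to 3402 CPM in N2, with 0 called and none at 0. For hypodermis and intestine the low ends in daf-2 and pfd-6 were replicate 3, the libraries low in ribosomal protein genes. Replicates 1 and 2 had hypodermis sums of 1260 and 1365 CPM in daf-2 animals and 1368 and 1177 CPM in pfd-6 animals. Their intestine sums were 1187 and 1446 CPM in daf-2 animals and 1456 and 2379 CPM in pfd-6 animals. Of 5 markers of body wall muscle, 6 of neurons and 7 of germline and oocytes 0 were called in any comparison. The part of these tissues in the levels of the 8 genes was not tested.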

How the data were processed

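RNA of whole day 1 adults was profiled by paired-end mRNA sequencing, per the labels' protocols. The authors deposited gene-level expected counts that were not adjusted for sequencing depth, per the file headers. The submitters' processing notes name RSEM 1.3.1, HISAT2 2.0.5, R 3.1.3 with limma 3.24.15, and StringTie 1.3.3, without their roles, and counting by strand is not given in the sources used here. The notes name the builds ce11 and WBcel235, and positions and exon lengths were taken from the WBcel235 annotation (Ensembl release 115), in which 46817 of 46904 IDs were found.

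Expected counts were rounded, filtered with filterByExpr and scaled by TMM, and quasi-likelihood models were fitted in edgeR 4.0.16 (R 4.3.3) to all 12 libraries with genotype as covariate. Standard errors and 95% intervals came from the same fit. Log2 CPM used a prior count of 2. The spline of the length offset had 5 degrees of freedom. Alternatives were RLE size factors, DESeq2 1.42.0, no filter, the compared groups alone, the replicate block, replicates 1 and 2 alone, leaving out both libraries low in ribosomal protein genes, a transcript length offset and leaving out each library. The settings for gene likeness without N2 replicate 3 and for the lists without replicate 3 of N2, daf-2 or pfd-6, and the comparison of replicate 3 with replicates 1 and 2 were chosen after seeing the data.

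The 8 members and the lists were chosen with earlier results of these data known. The lists held mitochondrial chaperones, proteases, import, signalling and chromatin, antioxidants, ATFS-1-dependent genes, genes of mitochondrial DNA and its maintenance, mitochondrial and cytosolic ribosomal proteins, Hsp70 paralogs, and markers of intestine, muscle, hypodermis, neurons, germline and sperm. Named were all 8 members, list genes that passed the test or otherwise up to 2 per list with the smallest p, and for hsp-6, hsp-60 and atfs-1 the 5 genes of at least 10 CPM with the highest correlation. Genes named outside this rule (ymel-1, lys-2, hsp-1, hsp-3, hsp-4, Y22D7AL.10 and lin-65 by level) were chosen after their values were seen.

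The protocol calls the 3 libraries of a genotype biological repeats, the last added later, without saying which number that was. Libraries of 1 genotype always differed by more than sampling noise (chi-square per degree of freedom at least 23.3). Same-numbered libraries deviated together beyond a correlation of 0.1 in every pair for daf-2 and N2 (0.453, 0.271 and 0.310). The same held for the double mutant and daf-2 (0.315, 0.211 and 0.137), which pairs the numbers there. It also held for pfd-6 and daf-2 (0.749, 0.655 and 0.704) and for the double mutant and N2 (0.330, 0.368 and 0.501), which were not compared directly. It did not hold for pfd-6 and N2 (lowest 0.000163) or the double mutant and pfd-6 (lowest 0.0195). The main fit left this pairing out, and the replicate block is the alternative that took it in. Tested on simulated data for daf-2 against N2, the fit recovered 0% of the 2-fold changes, 23.3% of the 4-fold and 66.7% of the 8-fold ones, among 14824 genes. Promoter and protein sequences were not analysed here.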

Additional observations from a re-analysis of the deposited data

How the results depend on the processing

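Of the 8 genes 0 were called in each of the 5 comparisons under every alternative run, with the lowest adjusted p at 0.0717. Of 792 member values under alternatives 739 kept their sign and 53 turned, 30 of these when 1 library was left out. In the simulation of daf-2 against N2 0% of 2-fold changes were called, so 0 calls there say nothing of differences of that size; the other comparisons were not simulated. With replicates 1 and 2 alone, log2 fold changes of daf-2 against N2 turned to 0.35 for hsp-60 and 0.33 for atfs-1, those of pfd-6 against N2 to 0.33 for hsp-60 and -0.20 for dve-1, those of the double mutant against daf-2 to 0.090 for atfs-1, 0.093 for ubl-5 and 0.069 for lonp-1, and the interaction to 0.51 for dve-1 and 0.25 for lonp-1. With daf-2 and pfd-6 replicates 3 both left out, clpp-1 turned to 0.14 in daf-2 against N2, atfs-1 to 0.074 and lonp-1 to 0.15 in the double mutant against daf-2, and the interaction to 0.038 for dve-1 and 0.51 for lonp-1. With the transcript length offset clpp-1 turned to -0.017 and lonp-1 to 0.16 in pfd-6 against N2, and dve-1 to -0.14 against daf-2 and -0.12 against pfd-6 in the double mutant. In the double mutant against daf-2, ubl-5 turned to 0.019 with RLE size factors and with DESeq2 and to 0.044 with the compared groups alone. With the replicate block, which changed no call of a member, ubl-5 turned there to 0.028 and clpp-1 in pfd-6 against N2 to -0.038. The cause of these turns was not tested.

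Leaving out each library in turn, or both of those replicates 3, values that turned ranged in daf-2 against N2 from -1.95 to 0.10 for hsp-60, -0.30 to 0.44 for atfs-1, -0.16 to 0.56 for ubl-5 and -0.47 to 0.15 for clpp-1, and in pfd-6 against N2 from -0.47 to 0.53 for clpp-1 and -0.39 to 0.14 for lonp-1. In the double mutant against daf-2 they ranged from -0.37 to 0.084 for atfs-1, -0.22 to 0.31 for ubl-5, -0.35 to 0.22 for clpp-1, -0.074 to 0.18 for dve-1 and -0.41 to 0.17 for lonp-1, and against pfd-6 from -0.73 to 0.22 for clpp-1 and -0.038 to 0.64 for dve-1. For the interaction they ranged from -0.082 to 0.83 for atfs-1, -0.87 to 0.32 for clpp-1, -0.70 to 0.063 for dve-1 and -0.45 to 0.51 for lonp-1.

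Over all genes the calls were 141 in daf-2 against N2, 15 in pfd-6 against N2, 470 in the double mutant against daf-2, 497 against pfd-6 and 21 for the interaction. With DESeq2 they were 401, 31, 916, 1290 and 446, and with the replicate block 253, 17, 814, 1496 and 36. Leaving out 1 library gave 41 to 249, 9 to 16, 0 to 714, 123 to 803 and 12 to 23. With replicates 1 and 2 alone the calls were 205, 9, 145, 557 and 6, with the compared groups alone 94, 8, 670 and 248 in the 4 pairwise comparisons, with the length offset 1143 in the double mutant against pfd-6, and with no filter 38 for the interaction. With both libraries low in ribosomal protein genes left out they were 222 in daf-2 against N2 and 163 in the double mutant against daf-2. Levels per kilobase of dve-1, by its longest transcript, came to 6.886 in double mutants and 6.53 in daf-2 animals, above the spread between replicates. The motif search in promoters was not run.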
